A study of Oryza sativa with 6 samples.

Results

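The genes of calcium signalling were read from arrays of rice root tips taken after and before aluminium (Al). A gene belonged to the set when the annotation deposited with the arrays gave its probe set 1 locus and its product text held the word calmodulin, calcineurin, calcium-dependent protein kinase (CDPK), CBL-interacting, EF hand, calcium-transporting ATPase or cation/proton exchanger. CBL stands for calcineurin B-like protein and CIPK for CBL-interacting protein kinase. Proteins that bind calmodulin are therefore members too, and texts naming a receptor were left out. The rule found 200 genes of 34960 with 1 locus, measured by 251 probe sets, and each gene was read from the probe set with the highest mean over the 6 arrays.

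The 3 samples after Al were tips of Japonica rice seedlings, 5 d old, that had spent 6 h in 0.5 mM CaCl2 with 50 µM Al at pH 4.5. The 3 samples before Al came from seedlings of the same kind on 0.5 mM CaCl2, with no Al and no pH given in the labels. Tips of 0 to 1 cm were used, and total RNA was hybridised to Affymetrix Rice Genome arrays, 1 sample per array. The samples are called biological repeats, but the labels do not say whether they came from separate cultures, and p-values therefore cover only the spread among these 6 samples. Tips held for the same 6 h in the solution without Al were not analysed here, so Al, elapsed time and any change of pH cannot be told apart.

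Calcium ions enter the cytosol as a brief signal when a plant cell meets a stress, and proteins with EF hands, the loops that hold calcium, read that signal. Calmodulins and calmodulin-like proteins change shape on binding calcium and then attach to target proteins, CBLs do the same for their partner kinases, the CIPKs, and CDPKs carry the sensor and the kinase in one chain. Calcium ATPases and cation/proton exchangers pump calcium out of the cytosol and so end the signal. The root tip is the main site of Al injury in plants, and calcium handling in its cells is known to be disturbed by Al.

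Values are log2 signals as deposited, and a difference of 1 is a 2-fold change. Signals of different probe sets are not on a common scale, so each gene was compared only with itself. Of 57258 probe sets on the arrays, 25283 had a present call on 3 or more of the 6 arrays and were tested with limma, with Benjamini-Hochberg adjustment over all of them and an adjusted p threshold of 0.05. Arrays of the same group correlated at 0.987 over the 25283 tested probe sets, and arrays of different groups at 0.951 to 0.956. Present calls ran from 24836 to 25492 per array, with 25274 ± 248 after Al and 24877 ± 46.3 before Al (SD, n = 3 each). All 5 root marker genes were present on all 6 arrays. Of these, OsPIN2, a root auxin efflux carrier, changed by −0.35 ± 0.08 (SE, n = 3 each) and OsSCR1, a regulator of the ground tissue, by −0.93 ± 0.20, while Lsi1, QHB and OsSHR1 did not pass the test. The probe set for OsSCR1, LOC_Os11g03110, is listed on chromosome 12 and not on chromosome 11, so the identity of that transcript is uncertain. Of 46 genes named as photosystem, chlorophyll-binding or Rubisco small chain proteins, which mark green tissue, 23 were tested. After Al 1 was higher (4.35%) and 5 were lower (21.7%), beside 16.2% and 17.8% of all tested genes. The 1 that rose was the chlorophyll-binding gene LOC_Os04g38410, by 0.70 ± 0.12. Their summed linear signal was 3944 to 4633 after Al and 5053 to 5489 before Al, and the Rubisco small chain gene LOC_Os02g05830 was present on 0 arrays after Al and 3 before Al. The part of such shifts in the calcium genes was not tested, and in bulk tips fewer cells of a type and less RNA per cell cannot be told apart.

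Among the 200 calcium genes, 160 were tested, and 151 of those were present on all 6 arrays. After Al, 50 genes were higher, 35 were lower and 75 did not pass the test. The share called, 53.1%, stood beside 34% of the 18066 genes tested over the whole arrays. Genes called higher made up 31.3% of the calcium genes and 16.2% of all genes, and genes called lower 21.9% and 17.8%. At least 2-fold, 16 calcium genes (10%) were higher and 5 (3.13%) were lower, beside 5.12% and 2.67% of all genes. Among the 16, 3 met the present-call filter only through the arrays after Al. The 3 arrays after Al lay wholly above those before Al for 60 of the 160 tested calcium genes and wholly below for 46. Over all 18066 tested genes the counts were 3899 (21.6%) and 4680 (25.9%). The arrays of the other 54 calcium genes overlapped. The median log2 change was 0.06 over the calcium genes and −0.04 over all genes, and the median size of change, sign set aside, was 0.31 and 0.22. Precision was similar in both, with a median SE of 0.0954 for the calcium genes and 0.104 for all genes. Many calls were small, and 37 of the 85 were under 1.5-fold.

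**Figure D1:**
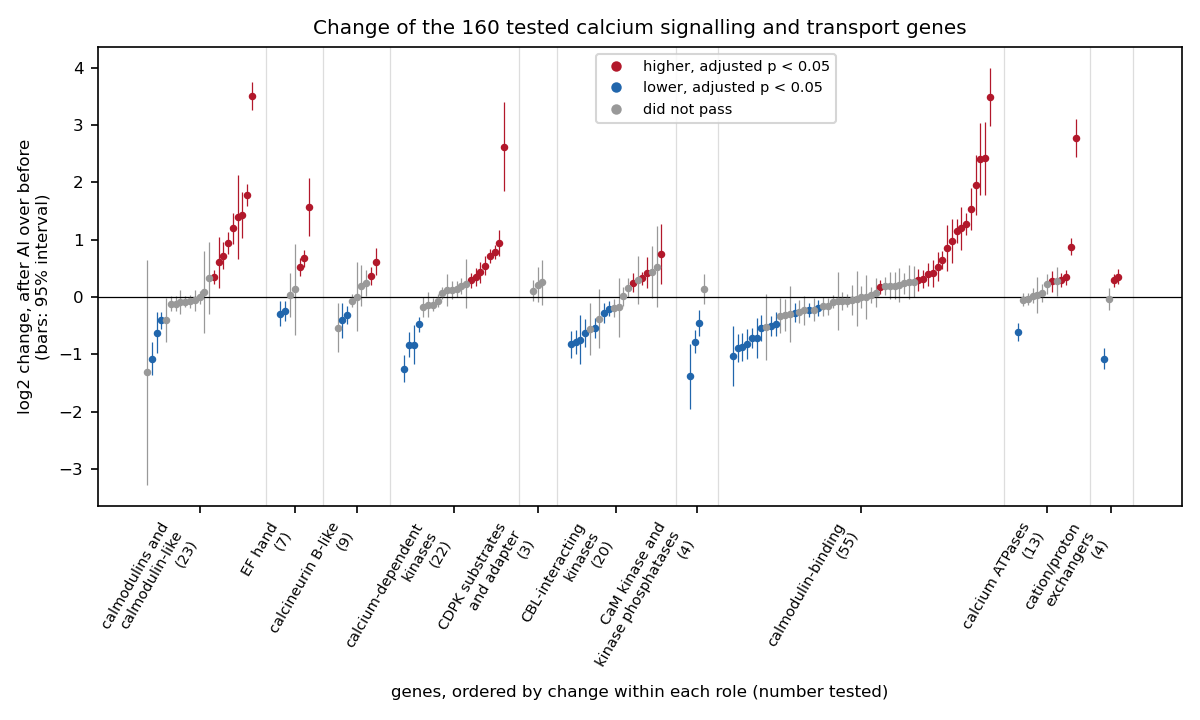
Log2 change after Al minus before Al (vertical axis) of each of the 160 tested calcium genes, 1 point per gene with its 95% interval, grouped by role along the horizontal axis, with passing genes coloured by direction. Changes ran from −1.38 to 3.51, and the largest rises belonged to calmodulin-like, calmodulin-binding, CDPK and calcium ATPase genes.

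Of 27 calmodulin and calmodulin-like genes, 23 were tested, with a median log2 change of −0.01. Of these, 9 rose (39.1%), 3 fell (13.0%) and 11 did not pass, beside 16.2% higher and 17.8% lower of all tested genes. The largest rise of all calcium genes was LOC_Os01g72530, a calmodulin-like protein (chromosome 1, 42400978 to 42401715; the build is not given). Its log2 signal was 10.87, 10.75 and 11.12 after Al, against 7.36, 7.40 and 7.46 before Al. Every array after Al was above every array before Al, by far more than the repeats differed among themselves. The log2 change was 3.51 ± 0.11 (SE, n = 3 each), which is 11.4-fold, with adjusted p = 3.24e-08.

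A second calmodulin-like gene, LOC_Os11g04560, gave 11.49, 11.29 and 11.48 after Al, against 9.71, 9.49 and 9.72 before Al. The groups did not overlap, and the log2 change was 1.78 ± 0.09 (adjusted p = 5.88e-07). Its probe set also aligned to chromosome 12, so a near-identical copy may share this signal. LOC_Os12g41110, a calmodulin given as OsCAM-2 in the array's target description, gave 10.72, 10.85 and 11.13 after Al, against 9.15, 9.36 and 9.91 before Al, a change of 1.42 ± 0.18 (adjusted p = 0.000229). All arrays after Al were again higher. This probe set can bind other transcripts, and the gene's second probe set changed by 1.48 ± 0.12.

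LOC_Os01g04330, annotated as a touch-induced calmodulin-related protein, measured 11.27, 11.47 and 11.48 after Al, against 10.48, 10.18 and 9.97 before Al, a rise of 1.20 ± 0.12 with no overlap. LOC_Os03g53200, a calmodulin, measured 12.40, 12.34 and 12.43 after Al, against 11.65, 11.33 and 11.35 before Al and rose by 0.95 ± 0.08 (adjusted p = 2.37e-05). LOC_Os11g04770, also annotated as a calmodulin, was called present on all 3 arrays after Al and on none before Al. Its signals were low, 5.45, 5.41 and 5.49 after Al, against 3.98, 4.04 and 4.15 before Al. The measured ratio was 2.63-fold. This gene met the present-call filter only through the arrays after Al, so adjusted p = 0.00907 is no separate support. The gene was not above background before Al, so the size of the change is uncertain. Over the alternative settings its log2 change ran from 0.45 to 1.52, beside 1.39. Without the filter on dim probe sets this gene no longer passed, at adjusted p = 0.0834, and its probe set aligned to chromosome 12 as well.

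Genes of the same class also fell. LOC_Os05g41200, a calmodulin-related protein (chromosome 5, 24047030 to 24047769), measured 7.98, 7.93 and 7.62 after Al, against 8.83, 9.01 and 8.93 before Al, a change of −1.08 ± 0.13 (adjusted p = 0.000163). All 3 arrays after Al were lower. Its neighbour on the chromosome, LOC_Os05g41210, changed by −0.08 ± 0.09 and did not pass (adjusted p = 0.557). LOC_Os01g59530 fell by 0.62 on the log2 scale and LOC_Os01g32120 by 0.41. The 3 remaining rises were LOC_Os03g55960 at 0.72 ± 0.10, LOC_Os05g50180 at 0.60 ± 0.20 and LOC_Os01g72080 at 0.35 ± 0.05. The call of LOC_Os05g50180 was lost under 6 of 14 alternative settings, among them leaving out any 1 of the arrays before Al.

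Split by product text, 4 of 13 tested genes called plain calmodulin rose (30.8%) and 1 fell (7.69%). Of 10 called calmodulin-like or calmodulin-related, 5 rose (50%) and 2 fell (20%), beside 16.2% and 17.8% of all tested genes. The plain calmodulins that did not pass included several measured to within narrow limits. LOC_Os03g20370, called CaM1 in the array's target description, averaged 14.08 ± 0.08 after Al and 14.19 ± 0.07 before Al (SD, n = 3 each), a log2 difference with a 95% interval of −0.24 to 0.01. For LOC_Os01g17190 the interval was −0.13 to 0.11, and for LOC_Os08g02420 it was −0.18 to 0.04. A change of 2-fold lies outside each of these intervals. LOC_Os11g37550 had the widest spread of the class, at 1.25, 4.69 and 5.01 after Al, against 5.21, 4.72 and 4.95 before Al, and its change of −1.31 ± 0.87 did not pass (adjusted p = 0.306).

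**Figure D2:**
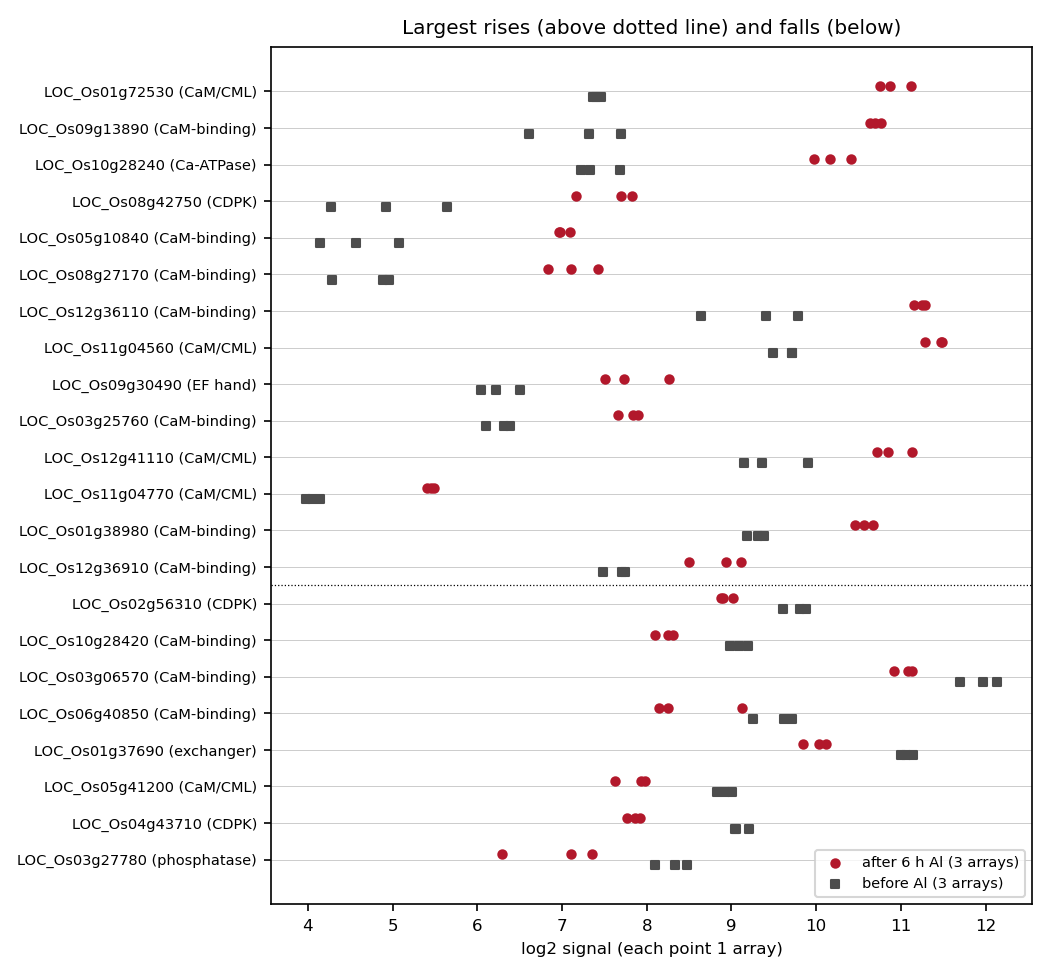
Log2 signal on each array (horizontal axis) of the 14 largest rises and 8 largest falls, 1 row per gene, with circles for the 3 arrays after Al drawn just above squares for the 3 before Al. LOC_Os01g72530 sits between 10.75 and 11.12 after Al, against 7.36 to 7.46 before Al, and LOC_Os10g28240 between 9.98 and 10.41, against 7.22 to 7.68.

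Of 18 EF hand proteins with no closer name only 7 were tested. Of these, 3 rose (42.9%) and 2 fell (28.6%), beside 16.2% and 17.8% of all tested genes. LOC_Os09g30490 was present on all 3 arrays after Al and on none before Al, at 7.51, 7.73 and 8.26 after Al, against 6.05, 6.22 and 6.51 before Al. The measured ratio, to a signal not above background, was 2.98-fold. This gene met the present-call filter only through the arrays after Al, so adjusted p = 0.000531 is no separate support. Over the alternative settings its log2 change ran from 1.36 to 1.74. The only alignment listed for its probe set is on chromosome 11 and not on chromosome 9, so the identity of the transcript is uncertain. LOC_Os07g43800 rose by 0.67 ± 0.07 and LOC_Os09g28510 by 0.52 ± 0.07. Both falls were small, at −0.29 for LOC_Os04g45180 and −0.24 for LOC_Os03g29770, with adjusted p = 0.0492 and 0.0366, and at most 1 of them passed when any single array was left out.

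All 9 CBL genes were tested and none reached 2-fold, with a median log2 change of 0.00. There were 2 rises (22.2%) and 2 falls (22.2%), beside 16.2% and 17.8% of all tested genes. LOC_Os02g55880, annotated as a calcineurin B subunit, measured 8.76, 8.89 and 8.93 after Al, against 8.20, 8.19 and 8.34 before Al. Its arrays after Al were all higher, by 0.62 ± 0.10 (adjusted p = 0.00152). LOC_Os10g41510 measured 12.54, 12.72 and 12.47 after Al, against 12.27, 12.19 and 12.17 before Al, a rise of 0.37 ± 0.07 (adjusted p = 0.00290).

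LOC_Os12g40510 was lower, at 11.14, 10.96 and 11.04 after Al, against 11.44, 11.38 and 11.27 before Al, a change of −0.31 ± 0.07 (adjusted p = 0.00808). LOC_Os01g39770 stood at the threshold, with a change of −0.41 ± 0.14 and adjusted p = 0.0498. Its other probe sets, at −0.18 and −0.34, did not pass, and the call was lost under 8 of 14 alternative settings, among them leaving out replicate 1 or 2 after Al or replicate 2 or 3 before Al. LOC_Os01g51420 changed by −0.54 ± 0.19, with overlapping groups and adjusted p = 0.0616. The other 4 did not pass either. LOC_Os12g06510 was the most closely bounded of these, with a difference of −0.06 ± 0.05 and a 95% interval of −0.18 to 0.05. LOC_Os03g42840 changed by 0.24 ± 0.10, LOC_Os01g41510 by 0.19 ± 0.16 and LOC_Os05g45810 by 0.00 ± 0.27, with adjusted p = 0.109, 0.410 and 0.996.

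CIPKs, the kinases that CBLs bring to membranes and switch on, had 7 of 20 tested genes lower (35%) and 4 higher (20%). Over all tested genes 17.8% were lower and 16.2% higher. The median log2 change of the CIPKs was −0.19, and no CIPK reached 2-fold. LOC_Os08g34240 (chromosome 8, 21334610 to 21335751) measured 10.23, 10.19 and 9.88 after Al, against 10.92, 10.89 and 10.85 before Al. All 3 arrays after Al were lower, and the change was −0.79 ± 0.09 (adjusted p = 0.000163). LOC_Os01g60910 measured 8.43, 8.48 and 8.32 after Al, against 9.12, 9.20 and 9.37 before Al, a change of −0.82 ± 0.10, on a probe set that can bind other transcripts.

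LOC_Os12g41090 changed by −0.74 ± 0.19, LOC_Os06g35160 by −0.63 ± 0.11 and LOC_Os05g26820 by −0.54 ± 0.08. The other falls, LOC_Os05g43840 at −0.28 and LOC_Os07g48100 at −0.21, were below 1.5-fold. Their calls were lost under 3 and 6 of 14 alternative settings. LOC_Os05g26940 had the largest rise among the CIPKs, 0.75 ± 0.23, but its call was lost under 9 of 14 alternative settings (adjusted p = 0.0350). LOC_Os07g48090 rose by 0.42 ± 0.12, LOC_Os01g18800 by 0.33 ± 0.05 and LOC_Os07g44290 by 0.25 ± 0.08. The calls of LOC_Os07g48090 and LOC_Os07g44290 were lost under 3 and 6 of 14 alternative settings, and that of LOC_Os01g18800 under 0. In the annotation the product texts of 14 calcium genes name protein kinase 15, so that name does not tell them apart. When any single array was left out, 1 to 3 CIPKs were higher and 4 to 8 lower, with the fewest falls without replicate 2 after Al and the fewest rises without replicate 1 after Al or replicate 2 before Al.

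CDPKs sense calcium and phosphorylate their targets directly. Of 30 CDPK genes 22 were tested, with a median log2 change of 0.13. Among these, 8 rose (36.4%) and 4 fell (18.2%), beside 16.2% and 17.8% of all tested genes. LOC_Os08g42750 (chromosome 8, 26922218 to 26926491) measured 7.83, 7.16 and 7.70 after Al, against 4.28, 5.64 and 4.92 before Al. It was called present on all 3 arrays after Al and on 1 before Al, so most of its values before Al were not above background. The groups did not overlap, and the fitted change was 2.62 ± 0.35 (SE, n = 3 each), with adjusted p = 0.000324. LOC_Os07g38120 measured 11.38, 11.74 and 11.41 after Al, against 10.59, 10.45 and 10.68 before Al, a rise of 0.94 ± 0.10 (adjusted p = 9.76e-05).

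LOC_Os05g50810 rose by 0.78 ± 0.05, and LOC_Os04g49510, OsCDPK7, by 0.72 ± 0.05, with SEs that were small beside the change. Smaller rises were LOC_Os03g59390 at 0.55 ± 0.07, LOC_Os03g57450 at 0.43 ± 0.08 and LOC_Os02g46090, OsCPK5, at 0.35 ± 0.07. LOC_Os03g03660, called CDPK12 in its target description, rose by 0.29 ± 0.06. RefSeq gives the symbols OsCPK12 and OsCDPK12 to another gene, LOC_Os04g47300, which had no present call and was not tested. LOC_Os04g43710 (chromosome 4, 25648721 to 25650105) fell most, at 7.86, 7.93 and 7.77 after Al, against 9.04, 9.21 and 9.05 before Al. All its arrays after Al were lower, with a change of −1.25 ± 0.11 (adjusted p = 1.81e-05), and it was called present on 2 arrays after Al and 3 before Al. LOC_Os02g56310 measured 8.88, 8.90 and 9.02 after Al, against 9.61, 9.88 and 9.81 before Al, a change of −0.83 ± 0.10. LOC_Os02g58520 changed by −0.83 ± 0.15 and LOC_Os05g39090 by −0.48 ± 0.06.

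OsCPK1, LOC_Os01g43410, was close to level, with a 95% interval of −0.18 to 0.05, and OsCPK3, LOC_Os01g61590, changed by −0.13 ± 0.05 and did not pass (adjusted p = 0.0824). The probe sets of LOC_Os09g29170 disagreed in direction, at 0.66, 0.19 and −0.06, with adjusted p = 0.0483, 0.0505 and 0.699. None of the 3 genes named as CDPK substrates or an adapter passed, with changes of 0.22, 0.26 and 0.11.

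**Figure D3:**
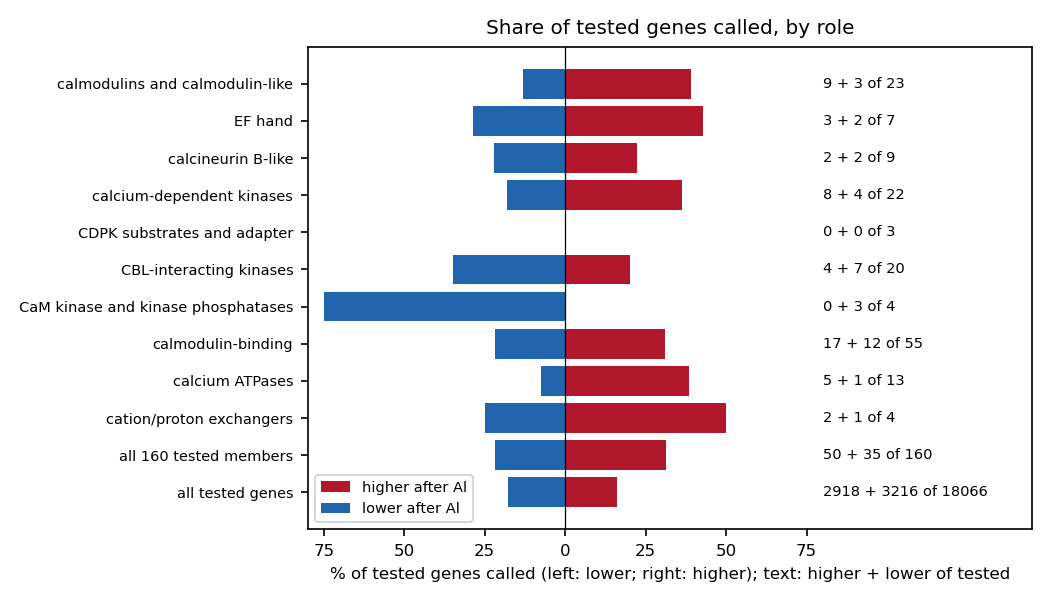
Share of tested genes (percent, horizontal axis) called higher (bars to the right) and lower (bars to the left) after Al in each role, with the numbers of genes beside the bars and all 18066 tested genes as the last row. Plasma membrane and endoplasmic reticulum calcium ATPases together had 5 of 13 genes higher and 1 lower, and CIPKs 4 of 20 higher and 7 lower. Over all tested genes 16.2% were higher and 17.8% lower.

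All 3 genes annotated as calcium and calmodulin-dependent kinase phosphatases fell, beside 17.8% of all tested genes. LOC_Os03g27780 measured 6.29, 7.11 and 7.35 after Al, against 8.33, 8.10 and 8.48 before Al, the largest fall of all calcium genes that passed, at −1.38 ± 0.25 (adjusted p = 0.00239). The arrays after Al differed widely among themselves but all lay lower. Its other probe set changed by −1.64 ± 0.27. LOC_Os07g49040 measured 11.34, 11.13 and 11.42 after Al, against 11.94, 12.16 and 12.12 before Al, a change of −0.78 ± 0.09 (adjusted p = 0.000111). LOC_Os10g39540, whose target description reads protein phosphatase-2C, changed by −0.45 ± 0.10 (adjusted p = 0.00804). The calcium and calmodulin-dependent kinase LOC_Os05g41090, known in legumes and rice for symbiosis signalling, changed by 0.14 ± 0.11 and did not pass (adjusted p = 0.414).

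Proteins that bind calmodulin formed the largest class, 66 genes with 55 tested, of which 17 rose (30.9%) and 12 fell (21.8%). Over all tested genes 16.2% were higher, 5.12% at least 2-fold, and 17.8% lower. The 38 genes whose text reads only calmodulin binding protein held most of the large rises. Among 33 tested, 11 were higher (33.3%), 7 of them at least 2-fold (21.2%), and 7 lower (21.2%). LOC_Os09g13890 (chromosome 9, 8172210 to 8176505) measured 10.76, 10.63 and 10.69 after Al, against 7.70, 6.61 and 7.32 before Al. The arrays before Al were spread over about 1 log2 unit and still lay far below those after Al. The change was 3.49 ± 0.23, or 11.2-fold (adjusted p = 2.94e-06).

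LOC_Os05g10840 was present on all 3 arrays after Al and on none before Al, at 7.10, 6.98 and 6.97 after Al, against 4.14, 4.57 and 5.08 before Al. The measured ratio, to a signal not above background, was 5.35-fold. This gene met the present-call filter only through the arrays after Al, so adjusted p = 0.000151 is no separate support. Over the alternative settings its log2 change ran from 1.99 to 2.66. LOC_Os08g27170 measured 7.42, 7.11 and 6.83 after Al, against 4.29, 4.96 and 4.89 before Al, a change of 2.41 ± 0.28 (adjusted p = 0.000135). In both genes the lowest array after Al was well above the highest before Al. LOC_Os12g36110 measured 11.25, 11.28 and 11.16 after Al, against 9.41, 8.64 and 9.79 before Al, a change of 1.95 ± 0.23, and its second probe set changed by 1.80 ± 0.12.

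LOC_Os03g25760 measured 7.66, 7.90 and 7.84 after Al, against 6.38, 6.32 and 6.10 before Al and rose by 1.53 ± 0.16. LOC_Os01g38980 measured 10.56, 10.67 and 10.46 after Al, against 9.38, 9.18 and 9.31 before Al and rose by 1.27 ± 0.09. LOC_Os12g36910 measured 8.49, 8.94 and 9.11 after Al, against 7.74, 7.48 and 7.71 before Al and rose by 1.20 ± 0.17. None of these 3 overlapped between groups. The neighbours of the last, LOC_Os12g36920 and LOC_Os12g36940, changed by −0.03 ± 0.21 and −0.32 ± 0.14 and did not pass. On the falling side LOC_Os03g06570 measured 10.91, 11.08 and 11.13 after Al, against 11.69, 11.96 and 12.14 before Al, a change of −0.89 ± 0.11 (adjusted p = 0.000176). LOC_Os08g02250 changed by −0.82 ± 0.12 and LOC_Os01g09470 by −0.72 ± 0.08.

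Calmodulin-binding transcription activators (CAMTAs), which in Arabidopsis switch on early stress genes, were higher in 5 of 7 genes (71.4%) and lower in none. Over all tested genes 16.2% were higher and 17.8% lower. For the CAMTAs, 3 of the 5 calls held under all 14 alternative settings. LOC_Os03g27080 measured 12.53, 12.27 and 12.20 after Al, against 11.14, 11.11 and 11.33 before Al, a rise of 1.15 ± 0.09 with no overlap (adjusted p = 1.34e-05). That probe set can bind other transcripts, and on the gene's own probe set the change was 0.55 and did not pass (adjusted p = 0.117). LOC_Os10g22950 rose by 0.86 ± 0.18, LOC_Os04g31900 by 0.64 ± 0.07, LOC_Os07g43030 by 0.41 ± 0.10 and LOC_Os03g09100 by 0.39 ± 0.09. The call of LOC_Os07g43030 was lost under 4 of 14 settings, among them leaving out replicate 2 after Al or replicate 3 before Al. LOC_Os01g69910 at 0.24 ± 0.08 and LOC_Os07g30774 at −0.06 ± 0.05 did not pass.

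IQ motif proteins, named for a short motif that holds calmodulin, had 4 of 10 tested genes lower (40%) and 1 higher (10%). Over all tested genes 17.8% were lower and 16.2% higher. LOC_Os06g40850 measured 8.14, 8.25 and 9.12 after Al, against 9.26, 9.62 and 9.71 before Al, a change of −1.03 ± 0.24 (adjusted p = 0.00858). One array after Al lay close to the lowest before Al, and the others were clearly lower. LOC_Os10g28420 measured 8.25, 8.32 and 8.10 after Al, against 9.19, 9.09 and 8.99 before Al, a change of −0.87 ± 0.11 (adjusted p = 0.000217). LOC_Os03g04210 changed by −0.71 ± 0.16 and LOC_Os04g56740 by −0.23 ± 0.06. LOC_Os02g19640 was the exception among the passing genes, with a rise of 0.97 ± 0.17. Among 6 other calmodulin-binding genes 5 were tested and only LOC_Os04g57140 passed, at −0.19 ± 0.06, with a call lost whichever array was left out.

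Calcium leaves the cytosol through pumps and exchangers. Of 14 calcium-transporting ATPases 13 were tested, with a median log2 change of 0.23. Among these, 5 rose (38.5%) and 1 fell (7.69%), beside 16.2% and 17.8% of all tested genes. LOC_Os10g28240, of the plasma membrane type (chromosome 10, 14352600 to 14355834), measured 10.41, 10.16 and 9.98 after Al, against 7.68, 7.22 and 7.33 before Al. The lowest array after Al was more than 2 log2 units above the highest before Al. The change was 2.77 ± 0.15 (SE, n = 3 each), which is 6.84-fold (adjusted p = 9.94e-07). LOC_Os03g10640 measured 12.45, 12.49 and 12.28 after Al, against 11.48, 11.50 and 11.59 before Al, a rise of 0.88 ± 0.07 (adjusted p = 8.38e-06).

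LOC_Os02g08010 rose by 0.34 ± 0.06 and LOC_Os08g40530 by 0.29 ± 0.06. LOC_Os05g02940, of the endoplasmic reticulum type, rose by 0.27 ± 0.08, and it was the only called calcium gene whose arrays overlapped between the groups, with a call lost under 7 of 14 alternative settings. LOC_Os04g51610 was the only ATPase to fall, at 10.86, 10.65 and 10.63 after Al, against 11.31, 11.33 and 11.35 before Al, a change of −0.61 ± 0.07 (adjusted p = 0.000158). OsACA8, LOC_Os12g04220, and its copy LOC_Os11g04460 changed by −0.04 ± 0.05 and 0.02 ± 0.06. Both probe sets aligned to both chromosomes, so the copies cannot be told apart. Their 95% intervals were −0.16 to 0.07 and −0.10 to 0.15.

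Vacuolar cation/proton exchangers load calcium into the vacuole, and 4 of 5 were tested. Among these, 2 rose (50%) and 1 fell (25%), beside 16.2% and 17.8% of all tested genes. LOC_Os01g37690, described on the array as a calcium/proton exchanger, measured 10.12, 10.03 and 9.84 after Al, against 11.06, 11.15 and 11.01 before Al. All 3 arrays after Al were lower, with a change of −1.07 ± 0.08 (adjusted p = 1.01e-05), on a probe set that can bind other transcripts. LOC_Os03g27960 rose by 0.35 ± 0.06 and LOC_Os04g55940 by 0.29 ± 0.05. LOC_Os05g51610 had a 95% interval of −0.23 to 0.16 and did not pass.

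Neighbouring loci did not always move together. LOC_Os07g48090 rose by 0.42 and the adjoining CIPK LOC_Os07g48100 fell by 0.21, with calls lost under 3 and 6 of 14 alternative settings. The fall was on a probe set that can bind other transcripts. The other tested probe set of LOC_Os07g48100, at −0.27, did not pass (adjusted p = 0.0566). The CIPK LOC_Os12g41090 fell by 0.74, with a call lost under 2 of 13 alternative settings. The calmodulin LOC_Os12g41110, nearby on the same chromosome, rose by 1.42. In all, 12 pairs of calcium genes had locus numbers no more than 20 apart, and several of these pairs held an untested gene. For 27 calcium genes at least 2 probe sets were tested, of which 25 moved in the same direction on all and 20 had the same call on all, and 0 were called in opposite directions. Beside LOC_Os09g29170, the probe sets of the calcium ATPase LOC_Os03g17310 differed in sign, at 0.05 and −0.03, and neither passed.

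Genes that act beside these sensors were counted from lists chosen by product words. Over all tested genes 16.2% were higher and 17.8% lower, and no list was tested against these shares. Of 10 tested cyclic nucleotide-gated channels, which let cations into the cell and bind calmodulin, 4 rose (40%) and 1 fell (10%). The fall, LOC_Os03g55100, measured 9.05, 9.16 and 8.47 after Al, against 9.99, 9.83 and 9.63 before Al, a change of −0.92 ± 0.17 (adjusted p = 0.00278), and LOC_Os06g33570 rose by 0.43 ± 0.07. Of 8 tested glutamate receptors, another family of channels, 0 rose and 4 fell (50%). The largest falls were LOC_Os09g25980 at −1.31 ± 0.40 and LOC_Os09g26000 at −1.04 ± 0.30. Both were dim, with present calls on 2 arrays after Al and 2 before Al for the first, and on 1 after Al and 3 before Al for the second. The other falls were present on all 6 arrays, LOC_Os06g46670 at −0.59 ± 0.09 (adjusted p = 0.000944) and LOC_Os02g02540 at −0.29 ± 0.08 (adjusted p = 0.0268).

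Annexins, which bind membranes when calcium is present, rose in 5 of 9 tested genes (55.6%) and fell in 0. Over all tested genes 16.2% rose and 17.8% fell. The largest annexin rises were LOC_Os07g46550 at 0.78 ± 0.14 and LOC_Os05g31750 at 0.48 ± 0.07. Calreticulins and calnexins, the calcium-binding chaperones of the endoplasmic reticulum, had 2 higher (50%) and 1 lower (25%) of 4. Among them were LOC_Os05g43170 at 0.60 ± 0.14 and the calnexin LOC_Os04g32950 at −0.18 ± 0.04. NADPH oxidases, which carry EF hands and make superoxide, had 3 higher (50%) and 1 lower (16.7%) of 6. LOC_Os11g33120 measured 12.06, 11.99 and 11.71 after Al, against 10.35, 10.21 and 10.52 before Al, and its groups were far apart. It rose by 1.56 ± 0.11 (adjusted p = 3.98e-06), and LOC_Os12g35610, present on 3 arrays after Al and 1 before Al, rose by 1.12 ± 0.29.

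Of 5 tested phospholipases C, 2 rose (40%) and 0 fell, beside 16.2% and 17.8% of all tested genes. The rises, LOC_Os03g30130 at 0.74 ± 0.15 and LOC_Os05g03610 at 0.58 ± 0.08, are labelled only as phospholipase C. LOC_Os07g49330, labelled phosphoinositide-specific, did not pass. Among 3 tested glutamate decarboxylases, enzymes that many plants regulate through calmodulin, 1 passed (33.3%), beside 34% of all tested genes. LOC_Os03g13300 measured 13.15, 13.12 and 13.12 after Al, against 10.99, 10.74 and 11.16 before Al. Its 3 arrays after Al lay within 0.03 log2 units of each other and above all arrays before Al, with a change of 2.17 ± 0.09 (adjusted p = 2.12e-07). Of 14 tested C2 domain proteins, whose domain binds lipids with calcium, 5 rose (35.7%) and 3 fell (21.4%). The largest rises were LOC_Os02g20970 at 1.43 ± 0.08 and LOC_Os09g39770 at 1.20 ± 0.12. The words searched for TPC-type and OSCA-type calcium channels matched 0 genes.

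**Figure D4:**
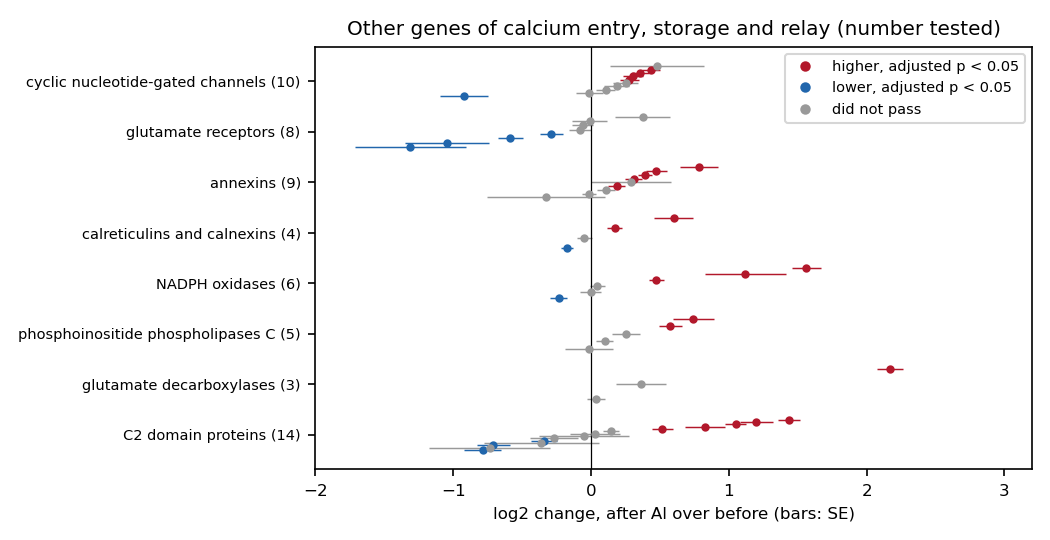
Log2 change after Al minus before Al (horizontal axis) of each tested gene in the lists of channels, annexins, chaperones, oxidases, phospholipases, decarboxylases and C2 domain proteins, 1 point per gene with its SE as a bar. The glutamate decarboxylase LOC_Os03g13300 at 2.17 lies farthest to the right, and the glutamate receptor LOC_Os09g25980 at −1.31 farthest to the left.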

How the data were processed

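RNA of 6 root tip samples, 3 after and 3 before Al, was measured on Affymetrix Rice Genome arrays. The authors deposited log2 signals, made with MAS5 per the submitters' processing notes (no version is given). The deposited table also holds present, marginal or absent calls, an unadjusted p-value and a fold change, which is a ratio of mean signals, per the file headers. MAS5 subtracts mismatch signal, so dim probe sets are noisy, and probe sets marked as able to bind several transcripts mix them.

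Probe sets with present calls on 3 or more of 6 arrays were fitted on their log2 signals with limma 3.58.1 in R 4.3.3 (lmFit, eBayes with an intensity trend), two-sided, with 4 residual and 9.47 total degrees of freedom. P-values were adjusted by Benjamini-Hochberg over 25283 probe sets. SEs and 95% intervals are those of the fit. The fit was tested on simulated data. The number of arrays limits the precision. A gene with no present call in one group has its fold given as the ratio to the higher of the lowest present signal and its own. The 3 genes treated this way had signals above that lowest one, so their folds are measured ratios and not lower bounds.

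The members, roles and lists were chosen with earlier results of these data known. The split of the roles into narrower classes was made after the product texts were seen. Named with values were the 14 largest rises and 8 largest falls among passing genes whose groups did not overlap, every tested CBL, up to 3 passing genes of largest change in each role, genes present in 1 group only, up to 2 passing genes in each further list, and genes whose probe sets disagree. For the largest rises and falls, groups that do not overlap follow from this choice and add no evidence. Other named genes were chosen after their values were seen. Locus names, product texts and alignments are those of the deposited annotation, with no build named. Of the 200 genes, 14 matched the RefSeq gene table (assembly GCF_034140825.1), which gave the symbols OsCPK1, OsCPK3, OsCPK5, OsCPK12 and OsACA8. CaM1, CDPK12, OsCAM-2 and OsCDPK7 come from the array's target descriptions. No sequence is printed, since the sources used here hold none for these genes.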

Additional observations from a re-analysis of the deposited data

How the results depend on the processing

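The counts were recomputed under 14 alternatives: leaving out each array, the replicate number as a block, quantile normalization, no filter on dim probe sets, presence on all 6 arrays, a floor of 5 on log2, no intensity trend, the probe set of smallest p per gene, and no probe sets that bind several transcripts. Genes called higher numbered 43 to 53 and genes called lower 28 to 36, beside 50 and 35. Of the 85 calls, 65 were kept under every alternative, 20 were lost under at least 1 and 0 changed sign. Leaving out 1 array gave 44 to 52 higher, 29 to 34 lower, 16 to 18 higher at least 2-fold and 3 to 6 lower at least 2-fold. The count of 3 came without replicate 3 after Al, and the cause was not tested. By role, leaving out 1 array gave 1 to 3 CBLs lower, 1 to 3 CIPKs higher, 4 to 8 CIPKs lower and 0 to 1 EF hand genes lower, beside 2, 4, 7 and 2. EF hand genes lower were 1 with the replicate block or quantile normalization and 0 with no filter, the floor or no intensity trend. CIPKs higher were 2 with no filter or no trend, CBLs lower 1 with no filter, the floor or no shared probe sets, and without shared probe sets CIPKs lower were 4 and exchangers lower 0. The CBL LOC_Os05g45810, which did not pass, changed sign to −0.14 without replicate 1 after Al, to −0.07 without replicate 2 after Al and to −0.24 without replicate 3 before Al, within a range of −0.24 to 0.21 over the 6 fits that each leave out 1 array. Same-numbered samples after and before Al correlated at 0.0696, 0.00114 and 0.0865 in their deviations from group means. Samples 1 and 3 after Al correlated best with their own number, and sample 2 with number 3, at 0.00695. These values do not settle whether samples were paired, and the main fit took the numbers as names only. The numbers are those of the sample titles, 1 to 3 in both groups, whereas the array columns number the samples after Al 2 to 4. The correlations and the block rest on the titles. With the replicate block, 53 genes were higher and 35 lower, and it kept 50 and 32 of the calls. With no filter on dim probe sets all 200 genes were tested, with 43 higher and 31 lower. No gene matched calcineurin-like phosphoesterase, so the alternative without such genes was not run. Dim signal limits the 40 untested genes, of which 32 had no present call.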

Other observations

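The 40 calcium genes that were not tested had log2 signals from 0 to 7.59. They included 11 of the 18 EF hand genes and 8 of the 30 CDPKs, whereas all 9 CBLs and all 7 CAMTAs were tested. The neighbours of the strongest riser LOC_Os01g72530, the calmodulin-like genes LOC_Os01g72540 and LOC_Os01g72550, were among the untested genes. No calcium gene was present on all 3 arrays before Al and on 0 after Al, while 3 showed the reverse.

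The calcium genes lay on all 12 chromosomes. Chromosome 3 held 27 tested genes with 10 higher and 4 lower, and chromosome 1 also held 27, with 5 higher and 8 lower. On chromosome 6, 0 of 8 tested genes were higher and 3 were lower, and on chromosome 9, 3 of 7 were higher and 0 lower. Over all chromosomes 31.3% of the tested calcium genes were higher and 21.9% lower, beside 16.2% and 17.8% of all genes. Shares of all genes on each chromosome were not computed, and the difference between chromosomes was not tested. In the authors' deposited table, 16 calcium genes had an unadjusted p under 0.05 with a fold of 2 or more, and 6 with a fold of 0.5 or less, of which 4 were among the tested genes. The shares of all genes at these limits were not computed.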
